A study of Mus musculus with 3 samples.

Results

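Barcodes with few UMIs were 3582 of the 18340 droplet barcodes in 3 single-cell RNA libraries of sorted mouse microglia. A UMI (unique molecular identifier) tags 1 captured transcript, and these barcodes were selected on fewer than 1500 UMIs, more than 200 genes and at most 10% of UMIs in mitochondrial genes. They numbered 860 of 6257 barcodes in the hCD33m library, 1370 of 5920 in the hCD33M library and 1352 of 6163 in the Control library. Their summed UMIs, scaled by the total of the class (CPM), were set against 8550 barcodes of the same libraries that held 3000 to under 8000 UMIs within the same limits, called mid-UMI barcodes here.

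The study asked how the isoforms of human CD33, an inhibitory receptor of myeloid cells, change microglia. The hCD33m mice carry the short isoform and the hCD33M mice the long isoform, each as a cDNA behind a floxed stop in the Rosa26 locus that Cre under Cx3cr1 opens, and Control mice are labelled as wild type. Wild-type controls of other assays in the study carried the same Cre, but its description of these libraries does not repeat this. The hCD33m line came from 1 embryonic stem cell clone, and the human transgenes were not counted. Each library pooled 2 mice, labelled as 8 weeks old, whose CD11b+CD45lowCx3cr1+ cells were sorted after handling on ice with blockers of transcription and translation, so each genotype is 1 sample.

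The sex in the labels of the hCD33m library is female, which differs from the methods of the study. Few-UMI barcodes of hCD33m held 0 UMIs of Xist, the RNA of the inactive X chromosome, and 67 UMIs of Ddx3y, a Y-linked helicase, so the counts go against that label. Of all barcode sequences, 25 were found in more than 1 library, and for 1 of these both barcodes had few UMIs. Without the shared sequences, 1386 genes were higher and 2317 lower in the comparison of few-UMI with mid-UMI barcodes.

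Transcripts lie in separate places in a cell. Long noncoding RNAs such as Malat1 and messages held back with unspliced introns stay in the nucleus, and the 13 mRNAs of the mitochondrial genome stay inside mitochondria. Messages for ribosomal proteins, actin and metabolic enzymes are translated by free ribosomes in the cytosol, whereas those for secreted, lysosomal and surface proteins are translated on the membrane of the endoplasmic reticulum. Why these barcodes hold few UMIs was not tested.

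The few-UMI barcodes made up 14.1% of the barcodes within the gene and mitochondrial limits in hCD33m (95% Clopper-Pearson interval 13.3 to 15.0), 23.8% in hCD33M (22.7 to 24.97) and 22.9% in Control (21.9 to 24.0). They held 2.01%, 3.59% and 3.88% of all UMIs of the hCD33m, hCD33M and Control libraries. The share was thus lowest in the hCD33m library, the one with the most UMIs in total, at 40629705 against 36413491 in hCD33M and 32272657 in Control. These intervals cover counting error only, and with 1 library per genotype no test across mice was possible. A further 157, 165 and 241 barcodes of hCD33m, hCD33M and Control with under 1500 UMIs lay over the mitochondrial limit and were left out.

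A few-UMI barcode held a median of 920.5 UMIs and 548 genes in hCD33m, 932.5 UMIs and 555 genes in hCD33M, and 886 UMIs and 557.5 genes in Control, against 4954.5, 4926.5 and 5128 UMIs in mid-UMI barcodes. The lowest total was 499 UMIs, which is where the deposited barcodes begin. Thinned to 500 UMIs each, few-UMI barcodes still showed fewer genes, with medians of 333, 336 and 350 in hCD33m, hCD33M and Control, against 373, 373 and 372 in thinned mid-UMI barcodes. At the limit itself the profile did not step. In the last 100 UMIs below it, 65, 98 and 82 barcodes of hCD33m, hCD33M and Control held 11.3%, 10.6% and 9.90% of UMIs in Malat1 and a median of 4.02%, 3.56% and 3.66% in mitochondrial genes. In the first 100 UMIs from 1500 on, 54, 104 and 105 barcodes held 11.2%, 11.3% and 9.74% in Malat1 and 3.89%, 3.49% and 3.95% in mitochondrial genes.

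Across 8421 non-mitochondrial genes with a mean of at least 10 CPM, 1384 (16.4%) were higher and 2317 (27.5%) were lower in few-UMI barcodes by edgeR's quasi-likelihood test, with the library as a block, at an adjusted p under 0.05 and a change of at least 1.5-fold. The median log2 fold change over all genes tested was -0.04, and log2 fold changes are few-UMI over mid-UMI throughout. The spread behind these tests is that between 3 libraries of different genotypes, and edgeR shares it across genes. An adjusted p thus does not measure the spread of its own gene alone. With totals that left out mitochondrial genes, Malat1 and Gm42418, 2034 genes were higher and 1909 lower, and the median of all genes was 0.10, so the balance of higher and lower genes rests on the scaling. No gene had opposite calls under that scaling or under TMM factors.

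Noncoding RNAs led the few-UMI barcodes. Malat1, a noncoding RNA of nuclear speckles, had 107530, 106780 and 102570 CPM in few-UMI barcodes of hCD33m, hCD33M and Control, against 48545, 50609 and 44661 CPM in mid-UMI barcodes. Its log2 ratio averaged 1.14 ± 0.06 (SD, n = 3 libraries), with an edgeR adjusted p of 7.2e-29, and Malat1 alone took 10.8%, 10.7% and 10.3% of the UMIs of few-UMI barcodes. Gm42418, which is annotated as a long noncoding RNA on chromosome 17 (39846958 to 39848788, plus strand, GENCODE M21 on mm10), had 5184, 7004 and 11072 CPM in few-UMI barcodes of hCD33m, hCD33M and Control, against 2714, 3282 and 3979 CPM in mid-UMI barcodes. The libraries did not overlap between classes for either gene, but the Gm42418 ratio varied more, at 1.17 ± 0.28 on the log2 scale (SD, n = 3; edgeR adjusted p = 1.2e-37).

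**Figure D1:**
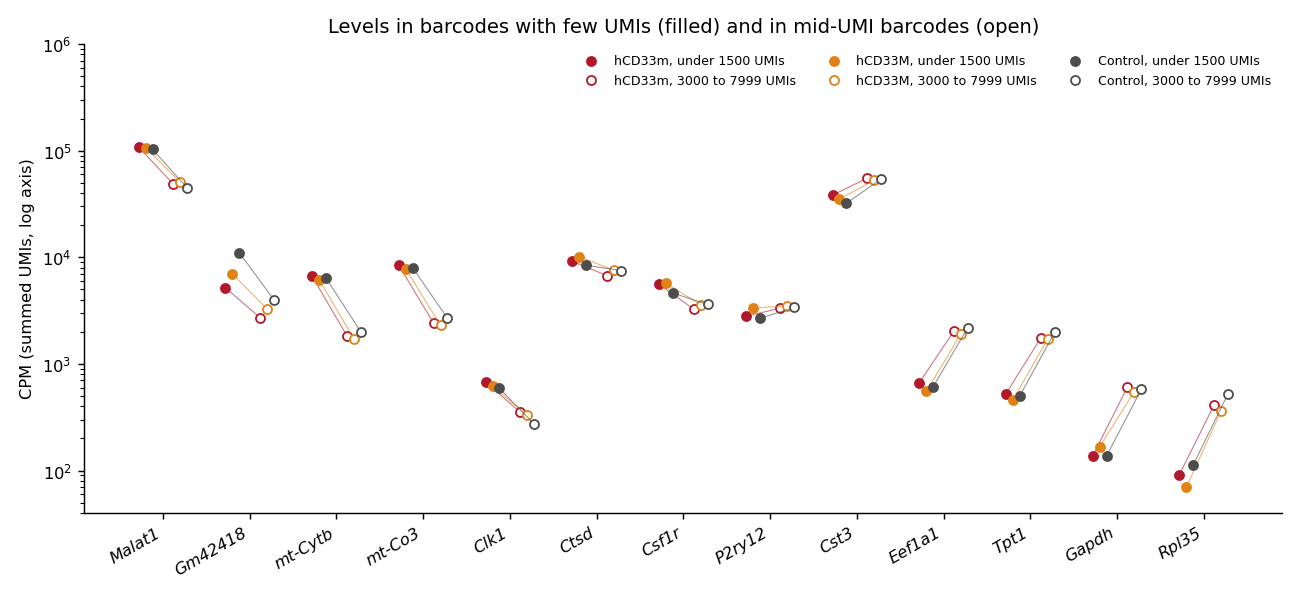
Level of 13 genes in CPM (log axis) in few-UMI barcodes (filled) and mid-UMI barcodes (open) of each library, joined by a line per library. Malat1, Gm42418, Clk1 and the mitochondrial transcripts slope down to the right, and Ctsd and Csf1r slope less. The cytosolic transcripts from Eef1a1 to Rpl35 slope up in all 3 libraries.

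Of 17 nuclear noncoding RNAs in the list, 10 passed the minimum level, 7 were higher and 0 were lower, with a median of 1.08 against -0.04 for all genes. Gm26917 had 237, 200 and 197 CPM in few-UMI barcodes of hCD33m, hCD33M and Control, against 60.6, 52.2 and 49.7 CPM in mid-UMI barcodes (log2 fold change 1.97, edgeR adjusted p = 3.5e-79). AY036118 had 397, 425 and 595 CPM, against 134, 144 and 141 CPM (1.74, edgeR adjusted p = 1.4e-78). Both lie beside Gm42418, and AY036118 (39847113 to 39848035, minus strand) overlaps it on the opposite strand. Reads of this locus may be split between these genes, so their separate levels are uncertain. They are thus not separate evidence in the list, and whether their reads come from nuclear RNA was not tested. Kcnq1ot1, a nuclear RNA transcribed antisense to a potassium channel gene, rose 1.33 on the log2 scale, Jpx, a noncoding RNA of the X inactivation centre, rose 1.01 and Neat1, the scaffold RNA of paraspeckles, rose 0.74.

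Among the tested genes, which leave out the mitochondrial ones, the 8 with the largest rise and a mean of at least 50 CPM over both classes were all annotated as noncoding. Gm43221, annotated as antisense on chromosome 3, led them with 202, 191 and 188 CPM in few-UMI barcodes of hCD33m, hCD33M and Control, against 29.3, 32.8 and 29.9 CPM in mid-UMI barcodes (log2 fold change 2.65, edgeR adjusted p = 6.0e-124). Gm26917, Gm31243, Gm32036, B430010I23Rik, Gm26699, AY036118 and Gm26522 followed, at 1.97 down to 1.59. Gm43221, Gm31243, Gm32036 and Gm26522 passed that minimum only through few-UMI barcodes, with 26.7 to 44.2 CPM in mid-UMI barcodes. Of 204 noncoding genes tested, 119 (58.3%) were higher and 15 (7.35%) were lower, against 1248 (15.3%) higher and 2279 (28.0%) lower of 8134 protein-coding genes. Gm43221, Gm31243, Gm32036 and B430010I23Rik are antisense to other genes, and whether counting used the strand is not given in the sources used here.

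Messages listed as held in the nucleus rose with them, though the counts do not show where in the cell a transcript lay. Of 18 such mRNAs, most of them for splicing proteins, all passed the minimum, 12 were higher, 0 were lower and 6 were not called, with a median of 0.81. Clk1, a kinase of splicing factors whose own transcript is kept in the nucleus with retained introns, had 678, 620 and 590 CPM in few-UMI barcodes of hCD33m, hCD33M and Control, against 351, 329 and 273 CPM in mid-UMI barcodes (log2 fold change 0.99, edgeR adjusted p = 1.3e-28). Clk4, its relative, rose 1.19, Ogt, which adds O-GlcNAc to proteins, rose 0.98 and Ccnl1, a cyclin of the splicing machinery, rose 0.97. The 6 members not called were Akap9, Srsf7, Rsrp1, Ddx5, Srrm2 and Srsf5.

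The mitochondrial genome was higher as well, but its share was used to choose the barcodes, so it is described without a test. Its 13 mRNAs together took 45928, 42199 and 42862 CPM in few-UMI barcodes of hCD33m, hCD33M and Control, against 14016, 13101 and 15579 CPM in mid-UMI barcodes. mt-Cytb, the cytochrome b of complex III, had 6631, 6173 and 6363 CPM against 1839, 1728 and 2008 CPM, a log2 ratio of 1.78 ± 0.10 (SD, n = 3). All 13 were higher in every library, and their mean log2 ratios ran from 1.14 for mt-Nd5 to 1.88 for mt-Nd6. Median shares per barcode were 4.57%, 4.05% and 4.18% in few-UMI barcodes of hCD33m, hCD33M and Control, against 1.25%, 1.16% and 1.40% in mid-UMI barcodes.

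The nuclear-encoded partners of these proteins went the other way. Of 41 nuclear-encoded respiratory chain genes, 40 had a row and passed the minimum, and all 40 were lower, with a median of -1.54. Atp5e, a small subunit of ATP synthase, had 60.0, 76.6 and 71.1 CPM in few-UMI barcodes of hCD33m, hCD33M and Control, against 284, 282 and 307 CPM in mid-UMI barcodes (log2 fold change -2.06, edgeR adjusted p = 9.3e-68). Cox5a and Cox6b1 of complex IV fell by 1.93 and 1.87, and Uqcrh of complex III fell by 1.89. Atp5c1, another ATP synthase subunit, and Romo1, a small protein of the inner mitochondrial membrane, each fell by 2.09.

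Transcripts of the cytosolic translation machinery were mostly low. Every one of the 82 ribosomal protein genes tested was lower, with log2 fold changes of -2.25 to -0.80 and a median of -1.74. Rpl35, a protein of the large subunit, had 91.8, 69.7 and 113 CPM in few-UMI barcodes of hCD33m, hCD33M and Control, against 413, 362 and 524 CPM in mid-UMI barcodes (log2 fold change -2.25, edgeR adjusted p = 4.3e-89). Rpl23a, Rps28 and Rpl29 followed at -2.00, -1.99 and -1.95. The name pattern behind this list also took in 7 S6 kinase genes, which are signalling kinases and not ribosomal proteins, and of these Rps6kb1, Rps6kb2 and Rps6kc1 were higher, 1 was lower and 3 were not called. Of 24 translation factors, 19 were lower and 0 higher (median -1.26), led by Btf3, a factor of nascent chains, at -1.91 and Tpt1 at -1.87. Eef1a1, the elongation factor, had 667, 552 and 610 CPM, against 2037, 1904 and 2193 CPM.

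Other cytosolic transcripts shared this. All 21 actin and tubulin cytoskeleton genes tested, of 22 in the list, were lower (median -1.54), among them Tuba1b (-2.00), the actin regulators Cfl1 (-1.93) and Pfn1 (-1.90), and Tmsb10 (-1.95). Tmsb4x, which binds actin monomers, had 2994, 2968 and 3014 CPM in few-UMI barcodes of hCD33m, hCD33M and Control, against 10797, 10931 and 11301 CPM in mid-UMI barcodes. Of 11 glycolysis genes, 9 were lower, 1 higher and 1 not called (median -1.14). Gapdh fell by 1.96, Pgk1 by 1.87, Pgam1 by 1.83 and Aldoa by 1.67, and Hk2, the hexokinase at the head of the pathway, rose 0.70. Skp1a, a subunit of ubiquitin ligases, and Atox1, a copper carrier, were also among the 8 largest falls, at -2.05 and -2.03.

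**Figure D2:**
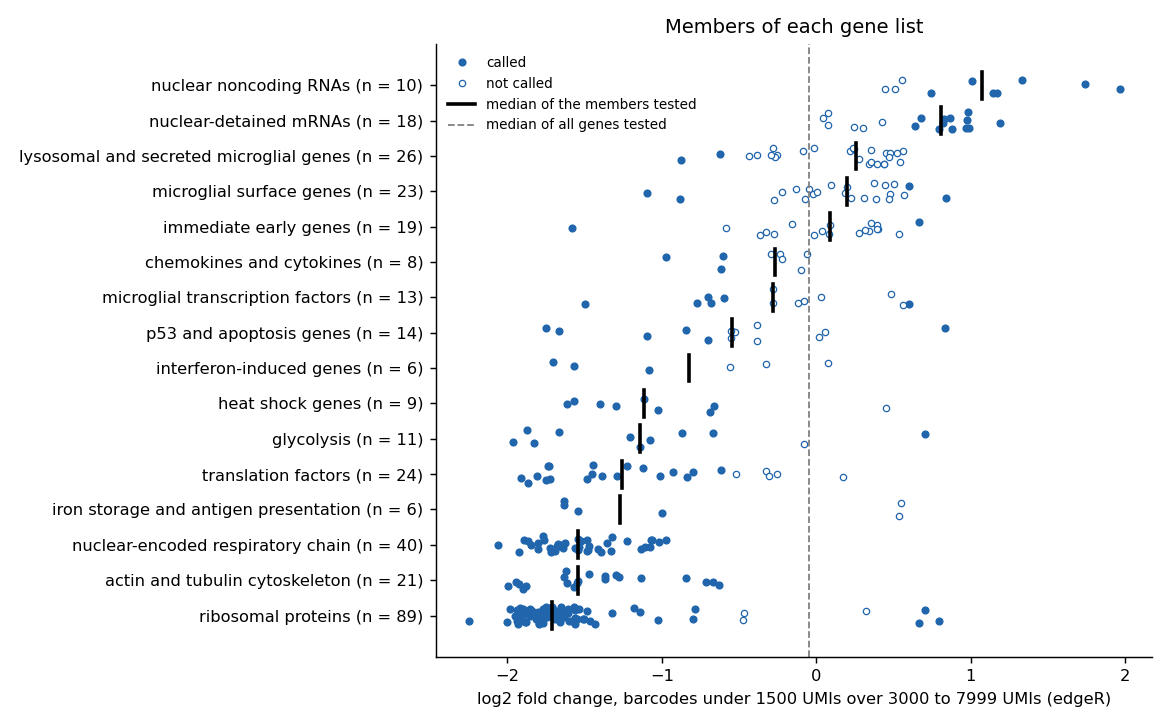
Log2 fold change (edgeR) of few-UMI over mid-UMI barcodes for each tested member of 16 gene lists, as points (filled where called), with the list median as a bar and the median of all 8421 genes tested as a dashed line. All tested cytoskeletal and nuclear-encoded respiratory chain genes lie left of the line, as do all in the ribosomal list but 4 S6 kinases, nuclear lists lie right of it, and the lysosomal, secreted and surface genes of microglia spread around it.

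The listed lysosomal and secreted microglial genes, summed over all few-UMI barcodes, were not low as the cytosolic lists were. Whether the site of translation has a part in this was not tested. Of 26 lysosomal and secreted microglial genes, 24 were not called, 2 were lower and 0 were higher, with a median of 0.26 against -0.04 for all genes. Ctsd, a lysosomal protease, had 9152, 10124 and 8411 CPM in few-UMI barcodes of hCD33m, hCD33M and Control, against 6738, 7535 and 7515 CPM in mid-UMI barcodes. Its log2 fold change of 0.34 (edgeR adjusted p = 0.00028) was under the 1.5-fold limit, as was the 0.54 of Lamp2, a lysosomal membrane protein. Cst3, the secreted protease inhibitor cystatin C, was lower at 38227, 35297 and 32074 CPM, against 55241, 52501 and 54207 CPM (-0.62, edgeR adjusted p = 6.4e-10), and lost its call without the Control library (-0.55) and under TMM factors (-0.56). Lyz2, the lysozyme of myeloid cells, fell by 0.88. Lyz2 (-0.44) and Cd74 (-0.38) were not called once barcodes with UMIs of Mrc1, Ms4a7, Plac8 or Ly6c2, markers of border macrophages and monocytes, were left out.

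Genes of the microglial surface were mixed. Of 23, 2 were higher, 2 lower and 19 not called (median 0.20). Csf1r, the receptor for the survival factor CSF1, had 5577, 5708 and 4624 CPM in few-UMI barcodes of hCD33m, hCD33M and Control, against 3272, 3588 and 3613 CPM in mid-UMI barcodes (log2 fold change 0.60, edgeR adjusted p = 4.5e-11), and was under 1.5-fold without the hCD33m library (0.51), without the hCD33M library (0.56) and where few-UMI meant under 1000 UMIs (0.22). With that lower limit the medians of the lysosomal and surface lists were -0.15 and -0.08, below 0. Csf3r, the G-CSF receptor, rose 0.84. The small adaptor Tyrobp had 1393, 1371 and 1249 CPM, against 2895, 2749 and 2915 CPM (-1.09, edgeR adjusted p = 4.4e-34), and Fcer1g, an adaptor of the same kind, fell by 0.88. P2ry12, a purine receptor, had 2790, 3352 and 2672 CPM against 3346, 3495 and 3386 CPM (-0.22), Tmem119 was at -0.27, Cx3cr1, on which the cells were sorted, at -0.07 and Fcrls at 0.39, none of them called.

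The defining microglial markers P2ry12, Tmem119 and Cx3cr1 were thus present in the few-UMI barcodes of every library. Iron storage and antigen presentation genes split within the list of 6. The cytosolic ferritins Fth1 and Ftl1 fell by 1.64 and 1.55, Cd74 by 1.64 and B2m, the light chain of MHC class I, by 1.00, whereas the class I heavy chains H2-D1 (0.55) and H2-K1 (0.54) were not called. Of 13 microglial transcription factors, 5 were lower, 1 higher and 7 not called (median -0.28). Over all genes tested, 27.5% were lower and 16.4% higher, and whether this list differs from them was not tested. Spi1, which encodes PU.1, had 185, 156 and 158 CPM in few-UMI barcodes of hCD33m, hCD33M and Control, against 470, 441 and 488 CPM in mid-UMI barcodes (-1.50, edgeR adjusted p = 4.6e-49). Cebpa (-0.77), Fli1 (-0.70) and Sall1 (-0.68) fell as well, and Mef2a rose 0.60.

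Heat shock genes were mostly lower, whereas the shares of lower genes in the apoptosis and chemokine lists lay near the 27.5% of all genes tested. Of 9 heat shock genes over the minimum, 8 were lower, among them the cytosolic chaperones Hspa8 (-1.57), Hsp90aa1 (-1.29) and Dnajb1 (-1.40) and the mitochondrial Hspe1 (-1.61), and the chaperone of the endoplasmic reticulum, Hspa5, was not called at 0.45. Of 14 p53 and apoptosis genes, 5 were lower, 1 higher and 8 not called. Bad, Bak1 and Cdkn1a fell by 1.66, 0.84 and 1.75, and Bcl2 rose 0.83. Mcl1 had 251, 216 and 215 CPM in few-UMI barcodes of hCD33m, hCD33M and Control, against 383, 335 and 288 CPM in mid-UMI barcodes. Of 6 interferon-induced genes over the minimum, of 13 listed, 3 were lower, and of 8 chemokines and cytokines, of 12 listed, 3 were lower and 0 higher, with Ccl4 at -0.97. Ccl4 was not called without the library block, which took its edgeR adjusted p to 0.23, or by DESeq2, with an adjusted p of 0.29.

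Counted per barcode, every transcript class was poorer in few-UMI barcodes, but to very different extents. Fewer UMIs in total was given in advance by the rule that chose the barcodes. All genes together gave 950 UMIs per few-UMI barcode in hCD33m, 953 in hCD33M and 926 in Control, against 5061, 5032 and 5209 per mid-UMI barcode, which was 5.33-fold, 5.28-fold and 5.63-fold fewer. The mitochondrial genome gave 43.6, 40.2 and 39.7 UMIs, against 70.9, 65.9 and 81.2, or 1.63-fold, 1.64-fold and 2.04-fold fewer. Malat1 was 2.41-fold, 2.50-fold and 2.45-fold fewer, and the lysosomal and secreted genes 5.54-fold, 5.62-fold and 7.11-fold fewer. The ribosomal protein list gave 21.6, 19.0 and 20.8 UMIs per few-UMI barcode, against 353, 333 and 378 per mid-UMI barcode, or 16.3-fold, 17.5-fold and 18.2-fold fewer, and the cytoskeleton list was 16.3-fold to 17.7-fold fewer. A comparison per barcode does not rest on how totals are scaled, but it uses the same sums as the CPM ratios and is not separate evidence.

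The genes that rose and fell also differed in length. Over 8340 genes with an annotated length, the union of exons had a median of 7496 bases among genes that were higher, 2853 bases among those that were lower and 5294 bases among the others. The median log2 fold change was -0.86 in the shortest of 5 equal groups of genes, up to 2613 bases, then -0.34, -0.06 and 0.13, and 0.44 in the longest group, from 8060 bases. Across genes the rank correlation of log2 fold change with exon length was 0.52 (Spearman, 8340 genes, which share the same libraries and are not independent). Lists also differed within the shortest group. It spans 183 to 2613 bases, so length is not matched within it, and the part of length was not tested. In the shortest group, the 13 lysosomal and secreted genes had a median of 0.22 and the 9 surface genes a median of -0.05, against -1.75 for 60 genes of the ribosomal list and -0.86 for all 1668 genes of that group.

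The profile changed with UMIs per barcode. Ribosomal protein transcripts took 2.22%, 2.25% and 2.32% of UMIs in barcodes with 500 to under 1000 UMIs of hCD33m, hCD33M and Control, and 2.32%, 1.79% and 2.18% in barcodes with 1000 to under 1500 UMIs. They took 4.33%, 2.41% and 2.89% at 1500 to under 3000 UMIs, 6.97%, 6.62% and 7.26% at 3000 to under 8000 UMIs, and 6.98%, 6.63% and 7.25% at 8000 UMIs or more. The low level was thus held across the whole few-UMI range and reached beyond its limit of 1500 UMIs, most clearly in hCD33M. The lysosomal and secreted genes instead were lowest at 500 to under 1000 UMIs, at 10.1%, 8.95% and 6.81%, and stood at 13.7%, 14.3% and 13.8% at 1000 to under 1500 UMIs.

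**Figure D3:**
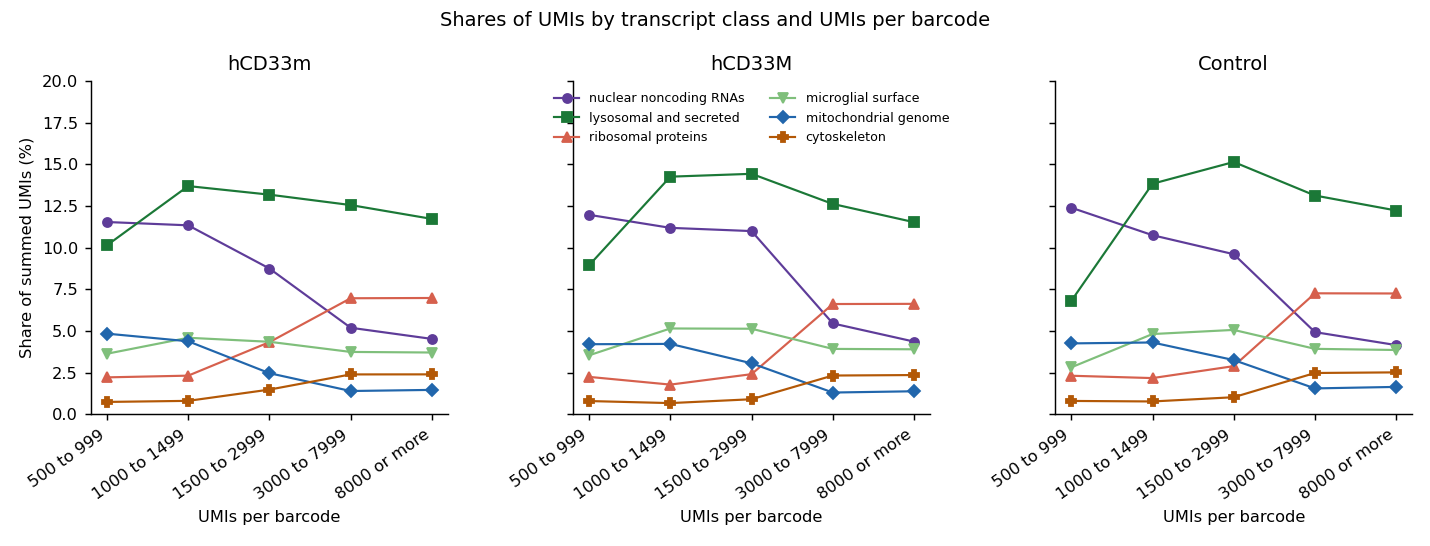
Share of summed UMIs (%) of 6 transcript classes by UMIs per barcode, with 1 panel per library. The few-UMI bins on the left hold more nuclear and mitochondrial and fewer ribosomal and cytoskeletal UMIs than the bins from 3000 UMIs on in all 3 libraries, and the lysosomal and secreted share is lowest in the first bin.

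The few-UMI barcodes were not uniform, and held barcodes of 2 kinds in every library. The share of a barcode's UMIs in the 26 lysosomal and secreted genes had a peak between 1% and 4% and another, broad peak above 10%, whereas mid-UMI barcodes thinned to the same totals had only the upper peak. Limits of 5% and 10% were placed after seeing this distribution, so what follows is a description without a test. Under 5% lay 179 of 860 few-UMI barcodes in hCD33m (20.8%, Clopper-Pearson 18.1 to 23.7), 412 of 1370 in hCD33M (30.1%, 27.7 to 32.6) and 622 of 1352 in Control (46.0%, 43.3 to 48.7). The same share was 0.51%, 0.36% and 0.15% of thinned mid-UMI barcodes. At 10% or more lay 539, 810 and 617 few-UMI barcodes of hCD33m, hCD33M and Control, which left 142, 148 and 113 in between.

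**Figure D4:**
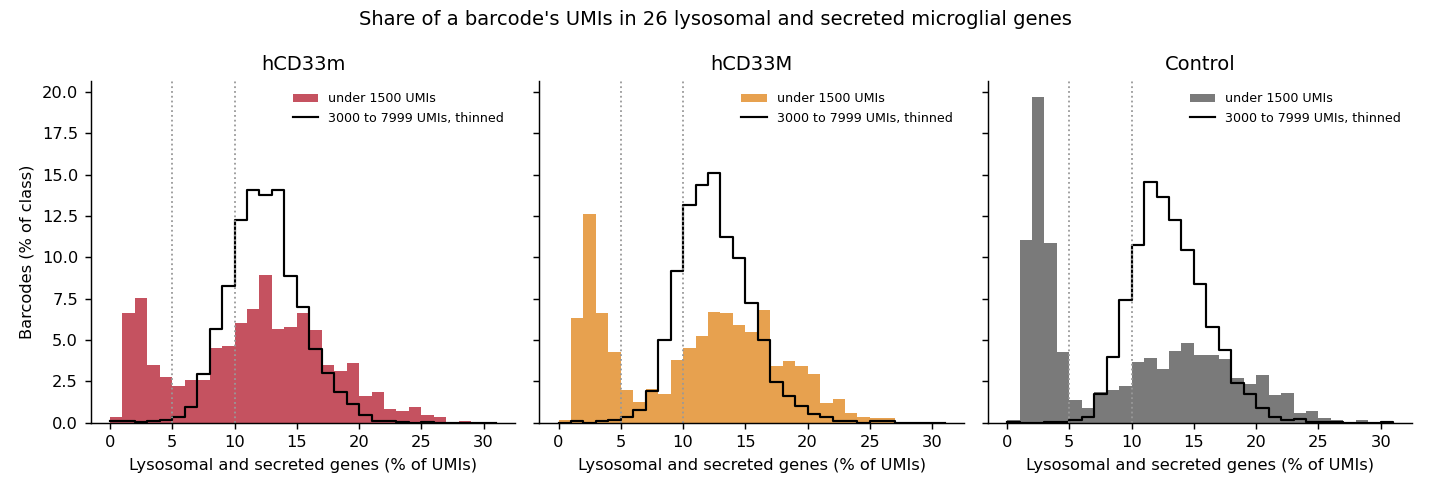
Distribution over barcodes of the share of UMIs in 26 lysosomal and secreted microglial genes (x axis, in bins of 1%) as percent of the class (y axis), for few-UMI barcodes (bars) and mid-UMI barcodes thinned to the same totals (line), with dotted lines at 5% and 10%. The lower peak is present in the few-UMI barcodes of all 3 libraries, is tallest in Control, and is nearly absent from the thinned mid-UMI barcodes.

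The lower kind was nearly confined to the barcodes with fewest UMIs. It made up 32.2%, 46.8% and 63.7% of barcodes with 500 to under 1000 UMIs in hCD33m, hCD33M and Control, 5.23%, 7.55% and 17.7% of those with 1000 to under 1500 UMIs, and 0.50%, 0.88% and 1.46% of those with 1500 to under 3000 UMIs. As a share of all barcodes within the limits, it was 2.94% in hCD33m, 7.17% in hCD33M and 10.5% in Control. The libraries thus differed more in the lower kind than in the upper, which was 8.85%, 14.1% and 10.5% of all barcodes within the limits. Whether this follows genotype cannot be told apart from differences between single libraries.

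In barcodes under 5%, Malat1, Gm42418 and the nuclear-detained mRNAs were higher than in barcodes of 10% or more. Malat1 had 129360, 129850 and 126340 CPM in hCD33m, hCD33M and Control, Gm42418 had 12600, 13851 and 13566 CPM, and the nuclear-detained mRNAs took 1.99%, 2.09% and 2.03% of UMIs, against 0.92%, 0.87% and 0.82% in mid-UMI barcodes. The split itself fixed low levels of the lysosomal and secreted genes here. P2ry12, which is not among them, had 864, 821 and 871 CPM, under the mid-UMI levels of the same libraries. It is a surface gene, and the surface share goes with the share used for the split. Sall1, a nuclear factor that defines microglia, had 475, 404 and 361 CPM, against 413, 412 and 411 CPM in mid-UMI barcodes. The Gm42418 level of this kind differed little between libraries, whereas over all few-UMI barcodes it ran from 5184 CPM in hCD33m to 11072 CPM in Control. In the barcodes between 5% and 10% it was 4860, 7473 and 29346 CPM in hCD33m, hCD33M and Control.

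In barcodes of 10% or more, Csf1r had 6761, 7398 and 7114 CPM in hCD33m, hCD33M and Control, against 3272, 3588 and 3613 CPM in mid-UMI barcodes. P2ry12 had 3362, 4376 and 4008 CPM, against 3346, 3495 and 3386 CPM, and was thus nearly level in hCD33m. Tmem119 had 1413, 1905 and 1695 CPM, against 1479, 1692 and 1547 CPM. The surface share goes with the share used for the split, so the split partly fixed these levels. Cst3, a secreted gene of the list used for the split, was below the mid-UMI level, at 48827, 45926 and 49382 CPM, against 55241, 52501 and 54207 CPM. Malat1 was also high there, at 95762, 95370 and 85666 CPM. Sall1 was low, at 216, 169 and 196 CPM. Cytosolic messages were low in both kinds. Ribosomal protein transcripts took 1.96%, 1.94% and 1.99% of UMIs under 5% and 2.28%, 1.97% and 2.39% at 10% or more, and mitochondrial transcripts took 4.18%, 3.83% and 4.398% under 5% and 4.86%, 4.398% and 4.34% at 10% or more.

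Over single few-UMI barcodes, the lysosomal and secreted share went with the surface share and against the nuclear ones. Its Spearman correlation with the surface share was 0.78, 0.84 and 0.86 in hCD33m, hCD33M and Control, with the nuclear-detained share -0.66, -0.71 and -0.73, and with the mitochondrial share 0.18, 0.13 and 0.02. The barcodes of a library share its depth, and all shares of a barcode share its total. Control also held 17 few-UMI barcodes with at least 10% of UMIs in Gm42418, up to 17.8%, against 0 in hCD33m and 2 in hCD33M. Without these, 1388 genes were higher and 2325 lower than in mid-UMI barcodes.

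Immediate early genes such as Fos encode mostly transcription factors switched on rapidly when a cell is stimulated, and were among the genes the study followed by genotype. In few-UMI barcodes, Fos had 695 CPM in hCD33m and 295 CPM in hCD33M, against 76.7 CPM in Control. In mid-UMI barcodes it had 507 and 241 CPM, against 55.1 CPM. The log2 ratio to Control within few-UMI barcodes was 3.18 for hCD33m (95% conditional binomial interval 2.87 to 3.51) and 1.94 for hCD33M (1.62 to 2.28), and the 3 libraries kept the same order in both classes. With 1 library per genotype there is no test, and a gene counted as higher or lower if its ratio reached 1.5-fold and the interval did not hold 1.

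Of 3597 genes with at least 50 CPM in hCD33m or Control, 110 (3.06%) were higher and 280 (7.78%) lower in few-UMI barcodes of hCD33m, against 40 (1.07%) and 6 (0.161%) of 3731 genes in mid-UMI barcodes. For hCD33M, 67 (1.88%) were higher and 176 (4.95%) lower of 3555 genes in few-UMI barcodes, against 30 (0.81%) and 13 (0.351%) of 3704 genes in mid-UMI barcodes. The few-UMI sums held 816879 UMIs in hCD33m and 1251761 in Control, against 16712163 and 14179311 in mid-UMI sums. Counting error at a given CPM was thus larger in few-UMI barcodes, and these counts do not compare the genotype difference between classes. The median log2 ratio of measured genes was -0.10 in few-UMI barcodes of both comparisons, against 0.001 for hCD33m and 0.006 for hCD33M in mid-UMI barcodes. Within barcodes under 5% of lysosomal and secreted genes, 196 genes were higher and 144 lower in hCD33m of 4281 measured, and within those of 10% or more, 163 were higher and 136 lower of 3261. Of the 110 genes higher in all few-UMI barcodes of hCD33m, 44 were higher under 5% and 71 at 10% or more, and of the 280 lower genes, 52 were lower under 5% and 59 at 10% or more. Each smaller set also has fewer UMIs, and the part of the mix of kinds in the genotype calls was not tested further.

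Most immediate early genes were among the higher ones. Of 23, 18 were measured, 17 were higher in few-UMI barcodes of hCD33m and 15 in those of hCD33M, and 0 were lower in either. Over all genes measured, 3.06% and 1.88% were higher. In mid-UMI barcodes 15 of 18 were higher in hCD33m and 12 of 18 in hCD33M. The list summed to 15644 CPM in few-UMI barcodes of hCD33m and 10457 CPM in hCD33M, against 5840 CPM in Control. Klf4, a Kruppel-like factor, had 206 and 79.6 CPM, against 9.59 CPM, which is 12 UMIs, and Klf2 had 222 and 73.5 CPM, against 17.6 CPM. Jun had 3423 and 2175 CPM, against 1278 CPM, Egr1 had 869 and 391 CPM, against 136 CPM, and Btg2, an antiproliferative gene, had 2200 and 1603 CPM, against 800 CPM. Dusp1, a phosphatase of MAP kinases, had 192 and 69.7 CPM, against 19.97 CPM.

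These genes were present in both kinds of few-UMI barcode. Fos had 794 and 325 CPM under 5% in hCD33m and hCD33M, against 70.5 CPM in Control, and 578 and 289 CPM at 10% or more, against 68.5 CPM. Between few-UMI and mid-UMI barcodes, 17 of 19 early genes were not called, with Fosb at 0.53, Fos at 0.40, Jun at 0.39, Btg2 at 0.39, Egr1 at 0.32, Klf2 at 0.09 and Rhob at -0.58. Klf4 was called higher (0.67), but not without the hCD33m library (0.40, edgeR adjusted p = 0.074), and Atf3 fell by 1.58. Rgs1, a regulator of G protein signalling, was higher in few-UMI barcodes of hCD33m (523 CPM) and hCD33M (570 CPM) than in Control (186 CPM), and also in mid-UMI barcodes.

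**Figure D5:**
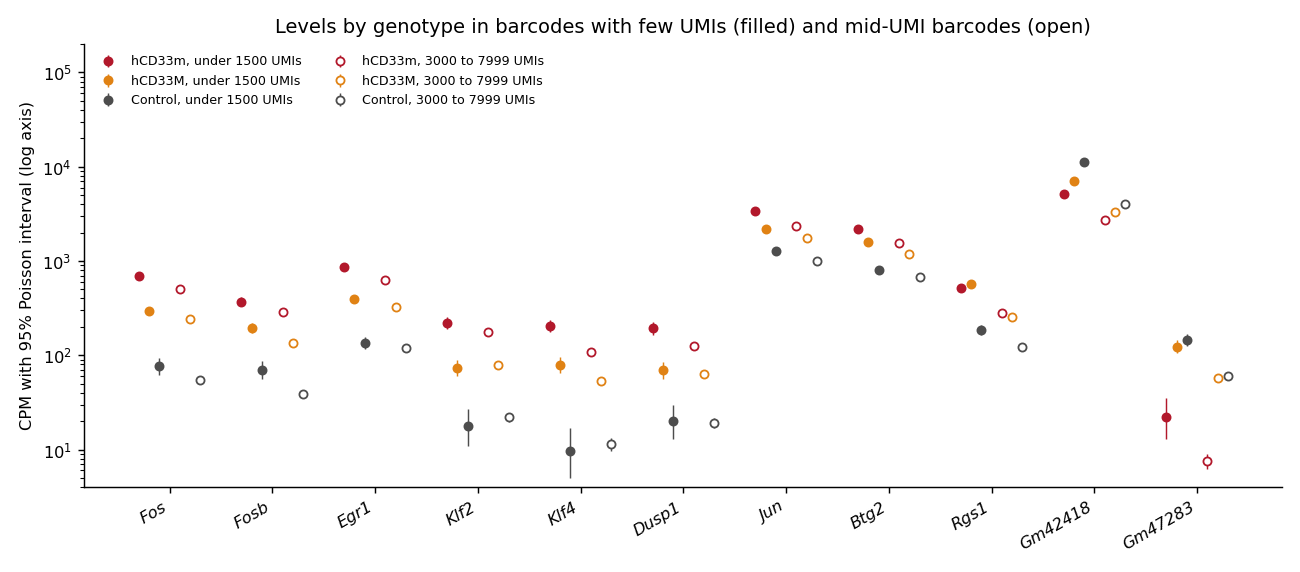
Level in CPM (log axis, with exact 95% Poisson intervals) of 11 genes in few-UMI barcodes (filled) and mid-UMI barcodes (open) of the 3 libraries. From Fos to Btg2, hCD33m lies highest and Control lowest in both classes, Gm42418 runs the other way, and Gm47283 is low in hCD33m only.

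Heat shock genes had 4 of 6 measured members higher in few-UMI barcodes of hCD33m and 4 of 7 in hCD33M, against 3.06% and 1.88% of all genes measured. The list summed to 2363 and 2556 CPM there, against 1668 CPM in Control. In mid-UMI barcodes 2 of 8 and 3 of 7 members were higher, against 1.07% and 0.81% of all genes. The list summed to 3076 and 3989 CPM in these, against 2665 CPM in Control. The chemokine Ccl3 had 96.7 CPM in hCD33m and 22.2 CPM in hCD33M, against 31.2 CPM in Control. The genes with the lowest ratios to Control in hCD33m were Gm47283, annotated on chromosome Y, at 22.0 CPM against 145 CPM, Nr2c2ap, Hist1h2ap, a histone gene, Gm43848 and Bcl2. Gm47283 was as low in mid-UMI barcodes, at 7.54 CPM in hCD33m against 60.7 CPM in Control, whereas Nr2c2ap had 13.5 CPM against 54.3 CPM in few-UMI barcodes and 35.8 CPM against 37.3 CPM in mid-UMI barcodes. In hCD33M the lowest ratios were those of Hist1h2ap, Sv2a, Rubcnl, Vps13b and Lars, from -2.00 to -1.27 on the log2 scale, with 23 to 39 UMIs each in hCD33M. The lowest genes of both comparisons reached the minimum of 50 CPM in Control only. The filter thus favoured genes whose Control level was raised by counting error, and it partly fixed these low ratios. Gm42418 was lower in few-UMI barcodes of hCD33m (-1.09) and hCD33M (-0.66) than in Control. Csf1r, P2ry12 and Cx3cr1, genes of homeostatic microglia, were not called in either comparison, with log2 ratios of 0.30, 0.33 and 0.38 in hCD33M.

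Markers of other cell types were scarce in the few-UMI barcodes. The 10 neuronal markers summed to 11, 20 and 17 UMIs in hCD33m, hCD33M and Control (13.5, 15.3 and 13.6 CPM), against 3.89, 3.30 and 4.37 CPM in mid-UMI barcodes, with 4, 5 and 5 of the markers at 0, among them Tubb3 and Slc17a7. Neutrophil markers summed to 0, 4 and 10 UMIs, against 153, 261 and 3.17 CPM in mid-UMI barcodes, with the defining S100a8 at 0, 0 and 2 UMIs. Hemoglobin and other red cell genes had 0, 11 and 0 UMIs. Among border macrophage markers, Mrc1 fell by 0.88 and Pf4 by 2.11, whereas Stab1, which microglia also express, rose 1.01. Oligodendrocyte markers summed to 978, 1002 and 854 CPM, against 814, 810 and 854 CPM, nearly all of it Trf, the transferrin gene.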

How the data were processed

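Whole-number UMI counts per gene and barcode were deposited by the authors for 3 libraries. Per the study's methods, Cell Ranger with STAR aligned the reads to mm10, and Seurat kept barcodes over 200 genes and dropped genes seen in under 3 cells. A gene with no row in a library was taken as 0 there. The authors' filters on mitochondrial share had not been applied to the files, which hold barcodes above 10%. The annotation release the authors used is not given in the sources used here. The barcodes, gene lists and tests were chosen with earlier results of these data known. Barcodes with few UMIs were summed per library, as were mid-UMI barcodes, and the 6 sums were tested with edgeR 4.0.16 in R 4.3.3 (glmQLFit, total-UMI scaling, library as block, mean of at least 10 CPM, Benjamini-Hochberg adjustment). The library is the pairing, since both classes are different barcodes of the same library. Mitochondrial genes stayed in the totals and were not tested. No doublet caller was run. Shares, levels and ratios have exact 95% intervals (Clopper-Pearson, Poisson, conditional binomial) for counting error only. Genes were annotated by symbol from GENCODE M21, with 15441 of 15635 (98.8%) matched. The test was checked on simulated data.

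Genes named are Malat1, Gm42418 and mt-Cytb, the 8 highest and 8 lowest called genes with a mean of at least 50 CPM and 1 direction in all libraries, each mitochondrial gene, up to 4 genes per list with at least 20 CPM, genes the study names for cluster 0 and homeostatic microglia, cell type markers, and the 5 highest and 5 lowest genotype ratios per comparison. Neat1, Jpx, Tmsb4x, Hspa5, H2-D1, H2-K1, Mef2a, Hk2, Cdkn1a, Atf3 and the S6 kinases were named after their values were seen. Alternatives changed the UMI and mitochondrial limits, the mid-UMI range, thinning, scaling (TMM), tool (DESeq2 1.42.0), minimum level, block, fold limit and libraries, and 4 were added after the data were seen. Python 3.11.15, numpy 2.4.6, scipy 1.17.1, pandas 2.3.3 and matplotlib 3.10.9 were used. Values of 1 gene that the rule names are not reported here.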

Additional observations from a re-analysis of the deposited data

Results flagged for a closer look

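Between libraries, and leaving aside lists of cell type markers, 2 lists moved opposite ways from mid-UMI to few-UMI barcodes, each with a counting interval clear of 0, and the difference between libraries was not tested. The summed level of immediate early genes was higher in few-UMI barcodes of hCD33m (log2 ratio 0.28) and hCD33M (0.0801), and lower in those of Control (-0.11). The summed level of microglial surface genes was higher in few-UMI barcodes of hCD33m (0.15) and hCD33M (0.17), and lower in those of Control (-0.03). This holds for the sum only. The median log2 ratio of its 23 members was above 0 in every library, at 0.193 in hCD33m, 0.195 in hCD33M and 0.105 in Control. Barcodes with under 5% of UMIs in lysosomal and secreted genes, in which surface genes took 1.55%, 1.65% and 1.62% of UMIs, made up 20.8% and 30.1% of few-UMI barcodes in hCD33m and hCD33M, against 46.0% in Control, and their part in the result was not tested. Among marker lists, neutrophil genes did so as well, with 0 UMIs in few-UMI barcodes of hCD33m, a log2 ratio of -6.41 in hCD33M and 1.33 in Control, the last from 10 UMIs in few-UMI barcodes.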

How the results depend on the processing

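The comparison of few-UMI with mid-UMI barcodes kept its counts within 1.5 times under most alternatives. With a minimum of 50 CPM, 635 genes were higher and 949 lower, since fewer genes were tested. With a fold limit of 2, 314 were higher and 1290 lower. Leaving out 1 library at a time gave 1234 to 1501 higher and 2136 to 2433 lower genes. Totals without mitochondrial genes, Malat1 and Gm42418 gave 2034 higher and 1909 lower genes, so higher genes were 51.6% of calls instead of 37.4%.

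Without the library as a block, that is without pairing both classes within a library, 1372 genes were higher and 2288 lower, and Ccl4 and Klf4 were no longer called. Between genotypes, no paired analysis was possible because each genotype is 1 library.

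The share of few-UMI barcodes moved with its limits. With under 1000 UMIs it was 8.16%, 13.7% and 14.1% in hCD33m, hCD33M and Control, with a mitochondrial limit of 5% it was 8.54%, 16.8% and 15.8%, and with no mitochondrial limit 16.3%, 25.9% and 25.8%.

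Genotype counts within few-UMI barcodes moved most. Under 1000 UMIs, 230 genes were higher in hCD33m, and 154 higher and 269 lower in hCD33M. With a minimum of 100 CPM, 63 were higher and 94 lower in hCD33m, and 28 and 51 in hCD33M. With a fold limit of 2, 40 and 42 in hCD33m, and 13 and 14 in hCD33M, passed as higher and lower. In barcodes under 5% of lysosomal and secreted genes, chosen after seeing the data, 196 were higher and 144 lower in hCD33m, and 164 higher in hCD33M. At 10% or more, 136 were lower in hCD33m and 116 in hCD33M. Beyond what each setting's construction gives, the cause was not tested.

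Of the named genes' values under alternatives, 1411 kept their side of the limits, 36 lost and 25 gained a call, and 0 called values changed sign. Most calls lost were those of Cxcl16, Csf1r, Il1a and Cst3. With 1 library per genotype, small differences were not detectable at this depth.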
